A study of Homo sapiens with 6 samples.

Results

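The genes described here are AMTN, its relative ODAM and 7 genes of laminin-332 and the hemidesmosome (LAMA3, LAMB3, ITGA6, ITGB4, COL17A1, PLEC and DST), 9 genes in all out of a table of 17448. AMTN was chosen for its high level in MLST8-KO cells, so its difference between the groups is given as a description without a test. The other genes were chosen by gene family, though with earlier results of these data known, so their tests may not be independent of that choice. Matching by gene symbol found 8 of the 9. ODAM was not among the genes of the table, so it was not analysed here. RNA-seq was performed on HCC2814, a human lung squamous cell carcinoma (LUSC) line. The WT samples (3) received a non-targeting guide (sgCtrl), and the MLST8-KO samples (3, labelled mLST8 KO) received a guide against MLST8, a subunit shared by the mTORC1 and mTORC2 kinase complexes. Both groups were infected with a CRISPR lentivirus and were selected with antibiotic, and RNA was taken from cells in culture.

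Hemidesmosomes fasten the basal surface of squamous epithelium to the basement membrane. On the outside, laminin-332, whose chains include those encoded by LAMA3 and LAMB3, is bound by the integrin heterodimer α6β4 (ITGA6 and ITGB4) and by collagen XVII (COL17A1), and on the inside plectin (PLEC) and the BP230 form of dystonin (DST) tie the complex to keratin filaments. Amelotin (AMTN) and ODAM are secreted proteins of the SCPP family, known from ameloblasts of the maturing enamel and from the junctional epithelium of the gum, where they lie in a specialised basal lamina between epithelium and tooth that also holds laminin-332.

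Estimated counts summed to between 14381673 and 15744154 per sample. Where 3 values follow each other below, they are those of replicates 1, 2 and 3 in that order. MLST8 itself had 874, 827 and 842 counts in the WT and 395.8, 629 and 401 in the MLST8-KO libraries, so much of its transcript was still detected (0.513-fold of WT). Its protein was not measured here. For this line the paper reported that MLST8 loss separated mTOR from RICTOR and not from RAPTOR, and lowered AKT phosphorylation at an mTORC2 site. Squamous markers were present in every library (8 of 8 with at least 10 counts in each sample), and their summed level was 14036 to 21351 CPM (counts scaled to a common library size) in WT and 24562 to 27545 in MLST8-KO samples. Leukocyte markers summed to at most 0.721 CPM, endothelial markers to at most 3.58 and fibroblast markers to at most 37.5 in any library. Alveolar markers summed to 1.95 to 4.05 CPM in WT and 8.96 to 10.7 in MLST8-KO samples. Nearly all of this sum was NKX2-1, with 59, 40 and 24 counts in WT and 166, 163 and 138 in MLST8-KO libraries. NAPSA, SFTPA1, SFTPA2 and SFTPB had at most 3 counts in any library. Liver markers summed to 245 CPM in MLST8-KO replicate 1 against 0.577 to 6.57 in the other 5 libraries, and each member's value without that library is given below.

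The stretch that ends just before the annotated AMTN transcripts is shown because AMTN had the largest difference of the members, and short stretches of LAMA3, LAMB3 and COL17A1 are shown because they hold motifs that few promoters hold. They come from RefSeq (GRCh38.p14), which gave 11 windows of 250 bases before annotated starts for 6 of the 8 measured members (AMTN, LAMA3, LAMB3, ITGA6, COL17A1 and DST). Each was searched on both strands for AP-1 (TGANTCA), forkhead (GTAAACA), TEAD (GGAATG), RUNX (TGTGGT), the GC box (GGGCGG), the CCAAT box (CCAAT), the TATA box (TATAAA) and the half-site of the p53 family. Distances below are counted back from the RefSeq start, which is at 70518569 for AMTN, 23873020 for LAMA3, 209651374 for LAMB3 and 104085880 for COL17A1. The GENCODE annotation, used for gene coordinates, starts further upstream for all 4. The matches shown for LAMA3, LAMB3 and COL17A1 lie inside the GENCODE gene, and those of AMTN lie before it. In the AMTN sequence (chr4:70518319-70518539, plus strand) capitals mark the CCAAT matches, and in the others they mark the AP-1 or p53-family match.
AMTN: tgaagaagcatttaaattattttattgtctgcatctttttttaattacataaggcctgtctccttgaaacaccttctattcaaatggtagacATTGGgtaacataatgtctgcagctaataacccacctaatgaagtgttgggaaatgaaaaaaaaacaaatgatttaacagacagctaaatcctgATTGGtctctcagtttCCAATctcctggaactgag
LAMA3, first match (chr18:23872885-23872911, plus strand): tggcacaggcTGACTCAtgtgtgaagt
LAMA3, second match (chr18:23872941-23872967, plus strand): cttcctcaccTGAGTCAggcaggcccg
LAMB3 (chr1:209651425-209651451, minus strand): tcagccactcTGACTCAttcactttgg
COL17A1 (chr10:104085916-104085945, minus strand): acctttgtcaGGACATGTTTggaagcaaag

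The AMTN window held 3 CCAAT matches, beginning 158, 64 and 48 bases before the RefSeq start, and no match to the other motifs. At least 1 CCAAT match was held by 32.0% of the 35116 RefSeq windows of this length. LAMA3 held 2 AP-1 matches, beginning 125 and 69 bases before a RefSeq start of its short form, and LAMB3 held 1, beginning 67 bases before its most downstream start, where 6.57% of all windows held any. Both LAMA3 matches lie downstream of position 23872840, where GENCODE starts a short transcript of 5671 bases. The p53-family half-site of COL17A1, 55 bases before the RefSeq start, had a counterpart in 5.57% of all windows. No member window matched the forkhead motif, which 2.98% of windows held. The first DST window held the only TEAD match and the second ITGA6 window the only RUNX match (11.9% and 11.0% of all windows). None of the 8 motifs was found for all 6 members. Each share is per motif and per window, so it does not give the chance of some match when 8 motifs and 11 windows are searched. A match in letters is not a bound site, and binding was not measured.

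AMTN (Entrez gene 401138) lies at chr4:70518540-70532742 on the plus strand of GRCh38. The WT libraries held 215, 109 and 77 counts and the MLST8-KO libraries 995, 1173 and 553. The lowest MLST8-KO library held more than the highest WT library, and each group varied widely around its own mean. Scaled to library size, the level was 9.11 ± 4.57 CPM (SD, n = 3) in WT and 57.4 ± 19.4 CPM (SD, n = 3) in MLST8-KO cells. The log2 difference came to 2.65 (standard error 0.33), a 6.26-fold difference, and lay between 2.39 and 3.13 with each sample left out in turn. Without MLST8-KO replicate 1, the library with the liver transcripts, it was 2.56.

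On the TPM scale, which corrects for gene length and lets genes be compared with each other, AMTN stood at 30.6, 15.8 and 11.3 in WT samples against 144, 169 and 78.1 in MLST8-KO samples. In WT cells its range overlapped that of LAMA3 (15.5 to 26.3 TPM) and lay above DST (6.43 to 10.5). In MLST8-KO cells its libraries lay on both sides of PLEC (121 to 124 TPM) and below ITGB4 (212 to 223), and its lowest library lay within the range of COL17A1 (72.2 to 86.1). LAMB3 and ITGA6 had the highest TPM and DST the lowest in both groups. LAMB3 and ITGA6 overlapped in MLST8-KO cells (299 to 338 and 276 to 360 TPM) but not in WT cells (257 to 290 and 120 to 229), where ITGA6 overlapped with ITGB4 instead (137 to 163).

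**Figure D1:**
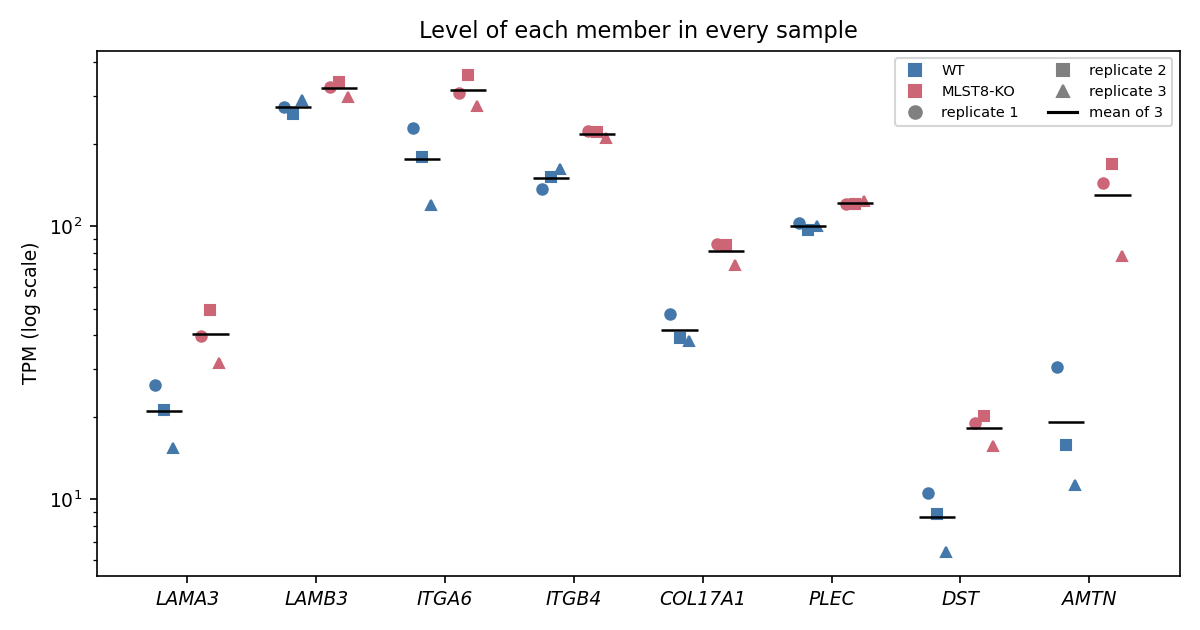
Level of the 8 measured members in each sample, in TPM on a log axis, with WT in blue, MLST8-KO in red, the 3 replicates as 3 symbols and the mean as a bar. AMTN lies at 11.3 to 30.6 TPM in WT and 78.1 to 169 in MLST8-KO samples, and LAMB3 and ITGA6 lie highest.

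For the 7 members other than AMTN, the question was whether the genes that build the hemidesmosome differed after MLST8 loss. Of these, LAMA3, ITGA6, ITGB4, COL17A1 and DST rose in MLST8-KO cells, none fell, and LAMB3 and PLEC did not pass the threshold (edgeR's quasi-likelihood test with a Benjamini-Hochberg adjusted p under 0.05 over 12951 genes). At an unadjusted p under 0.05, 6 of the 7 were higher and 0 lower by edgeR, and DESeq2 called 5 higher and 0 lower. Over all genes tested, edgeR called 16.3% higher and 15.7% lower at the adjusted threshold. DESeq2 called 1858 of 13355 genes higher and 2012 lower. The share of all genes at an unadjusted p under 0.05 was not counted. The median log2 fold change was 0.73 over the 7 members and 0.00 over all genes. In 6 of the 7 every MLST8-KO library exceeded every WT library in CPM, which was so for 24.8% of all genes, and in none of the 7 did every MLST8-KO library fall below every WT library, which was so for 24.2%. These are levels in bulk RNA, in which a change in the mixture of cells and a change per cell cannot be told apart. The summed squamous markers were higher in all MLST8-KO libraries as well, and their part in the members' difference was not tested.

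LAMA3 (chr18:23689443-23956222) encodes the α3 chain, the part of laminin-332 that the integrins bind. In WT cells 1371, 1104 and 794 reads were counted, against 1910, 2454 and 1631 in MLST8-KO cells. The groups did not overlap, at 74.7 ± 16.9 and 126 ± 23.7 CPM (SD, n = 3 each). On the log2 scale the difference was 0.76 (standard error 0.17, adjusted p = 0.00985 by edgeR), and 0.78 without MLST8-KO replicate 1 (adjusted p = 0.0363 by edgeR).

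LAMB3 (chr1:209614870-209652466) encodes the β3 chain. Reads numbered 8995, 8057 and 9042 in WT and 10227, 10893 and 9827 in MLST8-KO libraries. In CPM the groups overlapped, at 601 ± 49.0 and 654 ± 22.4 (SD, n = 3 each), and the log2 fold change of 0.12 was within the spread (standard error 0.08, adjusted p = 0.276 by edgeR). The TPM values, which are scaled by the sum over all transcripts, did not overlap (257 to 290 in WT and 299 to 338 in MLST8-KO samples), on a scale where the median of all genes tested itself lay 0.09 to 0.10 higher on the log2 scale in MLST8-KO samples. Without MLST8-KO replicate 1 the log2 fold change stayed at 0.12 (adjusted p = 0.443 by edgeR).

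ITGA6 (chr2:172427354-172506282) encodes the α6 integrin subunit, which pairs with β4 in hemidesmosomes and can pair with β1 elsewhere. In WT cells 10165, 7599 and 5075 reads were counted, against 13118, 15660 and 12306 in MLST8-KO cells. The groups did not overlap, but WT replicates 1 and 3 lay far apart, and the levels were 521 ± 154 and 867 ± 91.5 CPM (SD, n = 3 each). The fitted log2 difference was 0.73 (standard error 0.18, adjusted p = 0.0136 by edgeR). ITGA6 was no longer called without WT replicate 2 (0.73, adjusted p = 0.0523 by edgeR) or without MLST8-KO replicate 2 (0.65, adjusted p = 0.0633 by edgeR), and it kept its call without MLST8-KO replicate 1 (0.75, adjusted p = 0.0450 by edgeR). Exons of 3 antisense genes overlap 0.796% to 2.66% of its exonic bases, and whether strand was used in counting is not given in the sources used here.

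ITGB4 (chr17:75721328-75757818) encodes the β4 subunit, whose long cytoplasmic tail binds plectin. Reads numbered 6484, 6862 and 7312 in WT and 10064, 10258 and 10027 in MLST8-KO libraries. The MLST8-KO libraries lay close together and above every WT library, at 642 ± 7.82 CPM against 477 ± 48.9 (SD, n = 3 each). The log2 difference came to 0.43 (standard error 0.09, adjusted p = 0.00695 by edgeR), and 0.42 without MLST8-KO replicate 1 (adjusted p = 0.0349 by edgeR).

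COL17A1 (chr10:104031286-104085957) encodes collagen XVII, or BP180, a transmembrane collagen of the hemidesmosome. The WT libraries held 2187, 1712 and 1659 counts and the MLST8-KO libraries 3767, 3829 and 3314. The groups stood well apart, at 128 ± 15.2 and 231 ± 16.2 CPM (SD, n = 3 each). The log2 difference of 0.85 (standard error of 0.10, adjusted p = 0.00281 by edgeR) stayed between 0.80 and 0.96 with each sample left out, and was 0.81 without MLST8-KO replicate 1 (adjusted p = 0.0198 by edgeR).

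DST (chr6:56457987-56954628) encodes dystonin, of which the epithelial form BP230 sits in the inner plaque and binds keratin. In WT cells 1068, 871 and 640 reads were counted, against 1791, 1964 and 1501 in MLST8-KO cells. All MLST8-KO libraries were above all WT libraries, at 111 ± 13.2 against 59.0 ± 12.4 CPM (SD, n = 3 each). The fitted log2 difference was 0.91 (standard error 0.15, adjusted p = 0.00359 by edgeR), and 0.88 without MLST8-KO replicate 1 (adjusted p = 0.0224 by edgeR). This was the highest log2 fold change of the 7 members.

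PLEC (chr8:143915147-143976734) encodes plectin, the plakin that joins β4 to keratin. Reads numbered 10869, 9872 and 10096 in WT and 12237, 12745 and 13190 in MLST8-KO libraries. The groups did not overlap in CPM, at 710 ± 26.2 and 807 ± 32.5 (SD, n = 3 each), but the log2 fold change of 0.19 did not pass the threshold (standard error 0.07, adjusted p = 0.0775 by edgeR). PLEC did pass with upper quartile scaling (0.24, adjusted p = 0.0316 by edgeR) and on log2(TPM + 1) (0.28, adjusted p = 0.0152 by limma). In these fits the median log2 fold change of all genes tested was itself 0.06 and 0.09, against 0.00 in the main fit. Without MLST8-KO replicate 1 it was 0.20 (adjusted p = 0.152 by edgeR).

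**Figure D2:**
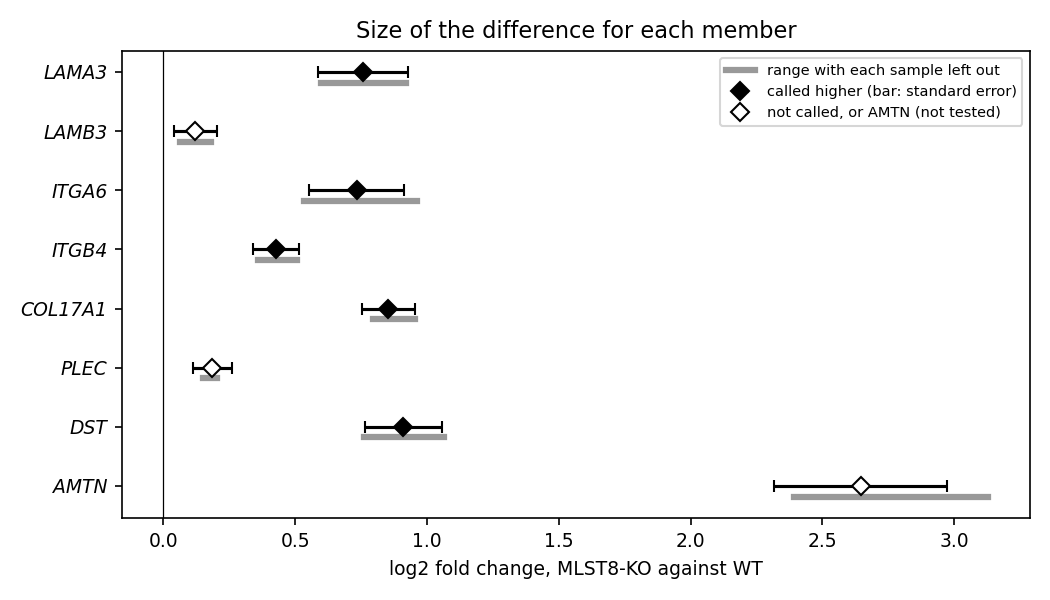
Log2 fold change of each measured member in MLST8-KO against WT cells, with its standard error as a thin bar and the range with each sample left out as a grey bar. Filled diamonds are members called higher, and LAMB3 (0.12) and PLEC (0.19) lie nearest to 0, while AMTN (2.65) is shown without a test.

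The libraries of a group kept a similar order across several members. How many of all genes keep the same order was not counted, so it cannot be read as particular to the members. WT replicates 1 and 3 also differed most over all genes tested (chi-square per gene 26.2). WT replicate 1 was the highest WT library in CPM for AMTN, LAMA3, ITGA6, COL17A1 and DST (5 of 8), and WT replicate 3 was the lowest for AMTN, LAMA3, ITGA6 and DST (4 of 8). LAMB3, ITGB4 and PLEC had their highest WT level in WT replicate 3 instead. Among MLST8-KO libraries, replicate 2 was highest for 5 of the 8 and replicate 3 lowest for 6. The summed squamous markers also ran from 21351 CPM in WT replicate 1 through 16673 in replicate 2 to 14036 in replicate 3, and their part in the members' levels was not tested.

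Pairs of members that work in one complex were compared by the log2 ratio of their TPM within each sample, which needs no scaling between libraries. With 3 samples against 3, an exact two-sided permutation test cannot go below p = 0.1, and the p-values were adjusted over the 4 ratios. The ratio of LAMA3 to LAMB3 was 0.0959, 0.0828 and 0.0534 in WT samples against 0.122, 0.146 and 0.106 in MLST8-KO samples, without overlap. Its log2 ratio was 0.72 higher in MLST8-KO cells (exact permutation p = 0.1, adjusted p = 0.2). PLEC exceeded DST 9.81-, 11.0- and 15.6-fold in WT samples against 6.32-, 5.98- and 7.88-fold in MLST8-KO samples. Every MLST8-KO value was below every WT value, with a log2 difference of -0.83 (exact permutation p = 0.1, adjusted p = 0.2).

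The integrin subunits showed no such separation. The ratio of ITGA6 to ITGB4 was 1.67, 1.18 and 0.736 in WT samples against 1.39, 1.63 and 1.30 in MLST8-KO samples. The MLST8-KO values lay inside the WT range (log2 difference 0.34, exact permutation p = 0.5, adjusted p = 0.5). The ratio of COL17A1 to ITGB4 was 0.234 to 0.348 in WT and 0.341 to 0.386 in MLST8-KO samples, so the groups met at their edges (log2 difference 0.42, exact permutation p = 0.2, adjusted p = 0.267).

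LAMA3 and DST are each transcribed from distant starts into short and long forms, which a gene-level count adds up. In the GENCODE annotation LAMA3 has a short transcript of 5671 bases (1724 residues), which encodes the α3A chain found in laminin-332 of the epidermis, and a long one of 10661 bases (3333 residues). The BP230 transcript of DST has 8999 bases (2649 residues), and its longest forms have 16742 to 22431. The gene length that the deposited values imply, computed as the count divided by FPKM and by the library total, moves with the mixture of forms that the authors' quantification assigned. This measure was chosen after the data had been seen, and is a description.

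For LAMA3 the implied length was 6172, 6469 and 6420 bases in WT samples against 6028, 6020 and 6108 in MLST8-KO samples. These lengths lie near the short transcript in all 6 samples, and every MLST8-KO value was below every WT value, a change of -4.75% in the mean. For DST it was 12021, 12307 and 12465 bases in WT samples against 11736, 11813 and 11308 in MLST8-KO samples, with no overlap and a change of -5.26% in the mean. Of 9738 genes with at least 2 FPKM in every sample, 2.87% were shorter and 6.2% longer in MLST8-KO samples without overlap. The other 6 measured members overlapped between the groups and differed by less than 1% in the mean. The share of any single form was not measured.

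**Figure D3:**
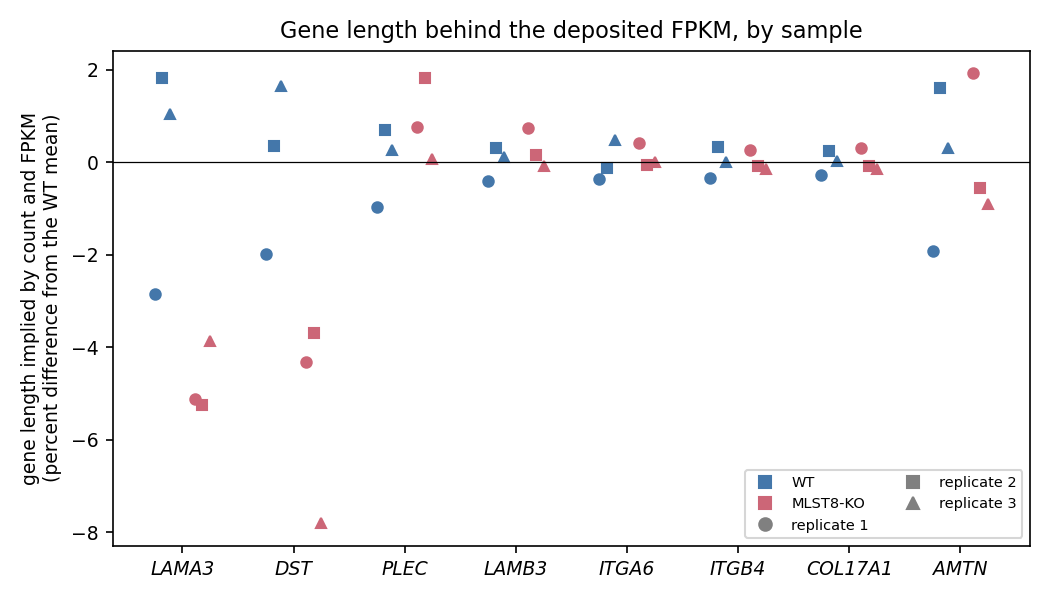
Gene length implied by count and FPKM for each measured member and sample, as a percent difference from the WT mean of that gene. LAMA3 and DST lie lower in MLST8-KO (red) than in WT samples (blue), with changes of -4.75% and -5.26% in the mean, and the other members overlap.

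Genes that surround the hemidesmosome were read from lists given by family and role, to be set against the 16.3% higher and 15.7% lower among all genes. In the lists where none fell, 0 genes were lower at an unadjusted p under 0.05 by edgeR and 0 were called lower by DESeq2. Among laminin chains outside the members, 3 of 8 tested rose and none fell (median log2 fold change 0.31). These were LAMA1 (0.76, adjusted p = 0.0135 by edgeR), LAMB1 (0.67) and LAMA5 (0.45), chains of the broader basement membrane. LAMA1 lost its call without MLST8-KO replicate 1 (adjusted p = 0.0605 by edgeR). Of 12 integrin subunits and tetraspanins, ITGA1 rose (1.30) at a mean of only 16.7 counts, a call lost without WT replicate 2. CD9, a tetraspanin (-0.44, adjusted p = 0.0133 by edgeR), and ITGA5, the fibronectin receptor subunit (-0.37), fell. ITGA5 lost its call without WT replicate 2, WT replicate 3, MLST8-KO replicate 1 or MLST8-KO replicate 3 and by limma, and CD9 lost its call without MLST8-KO replicate 2 (adjusted p = 0.0568 by edgeR). Those that partner laminin-332 and α6β4 directly did not pass, with ITGA3, the α3 subunit, at -0.08 (adjusted p = 0.541 by edgeR) and CD151 at 0.14 (adjusted p = 0.290 by edgeR).

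Of 12 genes of the basement membrane and anchoring fibrils, 5 rose and 1 fell (median 0.18). NID1, the nidogen that links laminin and collagen IV networks, was the clearest (1.06, standard error 0.20, adjusted p = 0.00524 by edgeR). FREM2 (0.82) and FRAS1 (0.76), which form one complex below the epidermis, rose with COL4A5 (0.68). Its partner COL4A6 was called as well (1.69, adjusted p = 0.0410 by edgeR), with 12, 10 and 7 counts in WT and 63, 26 and 13 in MLST8-KO libraries. Without MLST8-KO replicate 1, the library with the liver transcripts, COL4A6 was at 0.87 (adjusted p = 0.183 by edgeR). NTN4, a netrin that binds laminin, fell (-0.40), a call lost without WT replicate 2 (adjusted p = 0.0518 by edgeR) and by limma on log2(TPM + 1) (-0.25, adjusted p = 0.0914). COL7A1, the anchoring fibril collagen beneath hemidesmosomes, was at 0.07 (adjusted p = 0.564 by edgeR). Of 11 enzymes that process or cross-link laminin-332 or collagen XVII, PLAU, the urokinase protease, fell (-0.91, standard error 0.13, adjusted p = 0.00283 by edgeR). MMP2 (0.34) and MMP14 (0.26), which cleave laminin-332, rose with adjusted p-values of 0.0457 and 0.0449 by edgeR. No processing enzyme was called higher by edgeR without WT replicate 2, WT replicate 3, MLST8-KO replicate 1 or MLST8-KO replicate 3.

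On the keratin side, 4 of 7 plakins and keratins rose and none fell (median 0.41). KRT14 (0.87, adjusted p = 0.00509 by edgeR) and KRT5 (0.52, adjusted p = 0.0174 by edgeR) form the basal keratin filaments that hemidesmosomes hold. KRT5 kept its call without WT replicate 1 or WT replicate 3 and lost it without any of the other 4 samples (adjusted p from 0.0517 to 0.0740 by edgeR). DSP (0.62) and PPL (0.41) are plakins of the desmosome and cell periphery. Without MLST8-KO replicate 2 the higher calls in this list numbered 2. In the focal adhesion plaque, the actin-bound counterpart of the hemidesmosome, 5 of 13 genes rose and 3 fell (median 0.04). FERMT2 (0.69), an integrin activator, rose, as did LIMS1, PARVA, TLN1 and ACTN4 (0.25 to 0.35). PXN (-0.60, adjusted p = 0.00339 by edgeR), ZYX (-0.39) and TNS4 (-0.35), which are adaptors of the plaque, fell. ZYX lost its call without WT replicate 2, MLST8-KO replicate 1 or MLST8-KO replicate 2 (adjusted p from 0.0666 to 0.0717 by edgeR). The number higher was 1 without MLST8-KO replicate 1, 1 without MLST8-KO replicate 2 and 0 without WT replicate 2, against 5 with all samples. Of 9 transcription factors of basal epithelium, SOX2 (1.55, adjusted p = 0.00570 by edgeR), TP63 (0.47, adjusted p = 0.0211 by edgeR), GRHL2 (0.43) and TFAP2C (0.30) rose and none fell (median 0.20), with 1 higher call in each of the fits without MLST8-KO replicate 1, MLST8-KO replicate 2 or WT replicate 2. KRT5, KRT14, TP63 and SOX2 are also squamous markers, all 8 of which were called higher.

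**Figure D4:**
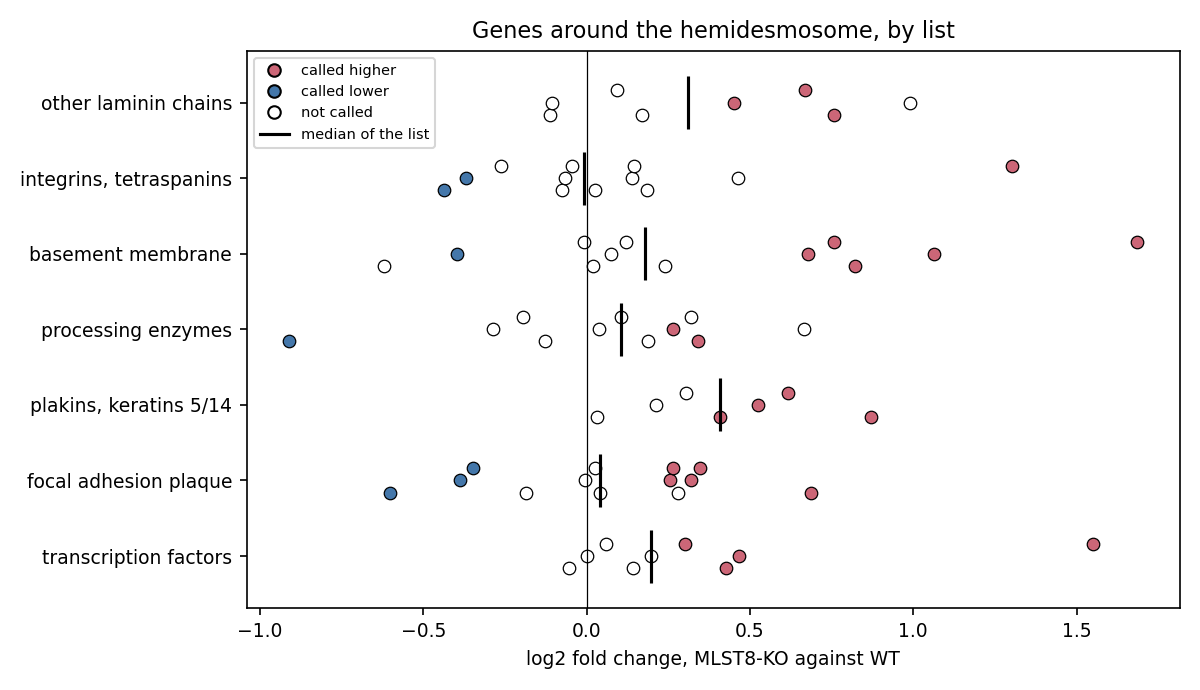
Log2 fold change of every tested gene in 7 lists of genes around the hemidesmosome, in MLST8-KO against WT cells, with called genes filled and the list's median as a line. The plakins and keratins have the highest median (0.41), and the integrins and tetraspanins lie around 0.

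The SCPP family to which AMTN belongs otherwise gave few reads. Of 22 other members, 11 were in the table and 2 had enough counts to test, SPP1 (0.16, adjusted p = 0.299 by edgeR) and SPARCL1 (0.18, adjusted p = 0.658 by edgeR), both expressed widely outside teeth. The genes beside AMTN on chromosome 4 were read because many of them belong to this family. The annotation places the starts of 15 genes, 12 of them protein coding, within 300 kb of its own, and 6 of these were in the table. FDCSP, CABS1, AMBN and JCHAIN had between 0 and 2 counts in every library. The nearest genes with enough reads were UTP3, 170 kb away, and RUFY3, 186 kb away. UTP3, a ribosome biogenesis factor, had 854, 956 and 1083 counts in WT samples against 783, 698 and 704 in MLST8-KO samples, and fell (-0.53, standard error 0.12, adjusted p = 0.00998 by edgeR). RUFY3 had 365 to 468 counts in WT and 520 to 609 in MLST8-KO samples, and rose (0.29, adjusted p = 0.0439 by edgeR). UTP3 and RUFY3 therefore moved in opposite directions, each by less than AMTN.

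The genes whose log2 CPM followed AMTN most closely over the 6 samples, among 11186 with a mean of at least 50 counts, were APP (Pearson r = 0.999), SDCCAG8 (0.998), TIA1 (0.997), SPTBN1 (0.997) and PSMC3IP (0.996). The samples fall into the 2 groups and share their libraries, so r reflects both the separation of the groups and the order of libraries within them. These values are a description. Of the members, DST ranked 48th (0.991), COL17A1 91st (0.988), LAMA3 495th (0.964) and ITGA6 884th (0.944). ITGB4, PLEC and LAMB3, whose order within the groups differed from that of AMTN, ranked lower, at 0.770, 0.775 and 0.598.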

How the data were processed

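Libraries were polyA-selected. Reads that passed the authors' filters were aligned with HISAT (GRCh38.p12), with Bowtie2 used to assign genes, and the authors deposited estimated counts, TPM and FPKM for every gene in each sample. The quantification program is not given in the sources used here. A further deposited table holds the authors' own fold changes, p-values and q-values and was not used. Of the estimated counts, 12.4% were not whole, although the design had been written for counts, so they were rounded. Per the labels of the series, the 3 samples of a group are biological replicates of separate experiments. Whether they carried the same guide is not given in the sources used here. Replicates differed by more than sampling noise (chi-square per gene 6.77 to 26.2).

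Both groups were fitted with edgeR 4.0.16 in R 4.3.3 (TMM, filterByExpr, quasi-likelihood test), with Benjamini-Hochberg adjustment over 12951 genes and a threshold of 0.05. Standard errors are the absolute log2 fold change over the square root of F. On simulated counts for these 12951 genes the fit called 85.5% of 200 genes changed by a log2 fold change of 1, and 5.52% of its calls were unchanged genes. Each member other than AMTN differed by less than that, and far more genes were called in the data (2116 higher and 2030 lower). These shares therefore do not give the power or the error for the members. The fit was repeated with DESeq2 1.42.0, with limma 3.58.1 on log2(TPM + 1) and log2(TPM + 0.1), 2 other scalings, 2 other filters and a replicate block, and without each sample in turn. Where 0 was counted, up to 3 counts (0.209 CPM for the smallest library) remain possible from counting error alone. Figures were drawn with matplotlib 3.10.9. Gene coordinates and transcripts come from GENCODE.

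The members and lists were chosen with earlier results of these data known. In each list up to 4 called genes of largest change with a mean of at least 50 counts are named, with ITGA3, CD151, COL7A1, KRT5, KRT14 and TP63, the genes within 300 kb of AMTN and the 5 that follow it most closely. ITGA1, COL4A6, NTN4, LIMS1, PARVA, TLN1, ACTN4, SPP1 and SPARCL1 and the implied lengths were added after their values were seen. Some items are not reported here.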

Additional observations from a re-analysis of the deposited data

How the results depend on the processing

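Of the members, COL17A1, DST, ITGB4 and LAMA3 were called higher under all 14 alternatives, ITGA6 under 12 and LAMB3 under 0. PLEC passed with upper quartile scaling (0.24), limma on log2(TPM + 1) (0.28) and limma on log2(TPM + 0.1) (0.28). No member's log2 fold change and none of the 4 ratios changed sign. The balance of calls did turn in some fits: over all genes DESeq2 called 1858 higher and 2012 lower, and 971 were higher and 1044 lower without WT replicate 2, against 2116 and 2030. With each sample left out, log2 fold changes lay at 0.53 to 0.96 for ITGA6, and 4 to 5 of the 7 members other than AMTN were called higher. The difference between the groups in the log2 ratio of ITGA6 to ITGB4 ranged from 0.03 (without WT replicate 3) to 0.62 (without WT replicate 1).

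With each sample left out, the number called higher was 971 (without WT replicate 2) to 2692 (without WT replicate 1) over all genes, and the number called lower was 850 (without MLST8-KO replicate 1) to 2651 (without WT replicate 1). Without MLST8-KO replicate 2, 1136 were higher and 1091 lower. Higher counts ranged from 1 (without MLST8-KO replicate 1 or 2 or WT replicate 2) to 4 for transcription factors, from 0 (without WT replicate 2) to 6 for the focal adhesion plaque, where both fits without MLST8-KO replicate 1 or 2 gave 1, and from 4 to 6 for the basement membrane. They ranged from 2 (without MLST8-KO replicate 2) to 5 for plakins and keratins, from 2 (without MLST8-KO replicate 1) to 3 for laminin chains, from 0 (without WT replicate 2) to 2 (without WT replicate 1) for integrins and tetraspanins, and from 0 (4 of the fits) to 3 for processing enzymes. Lower counts ranged from 0 (without WT replicate 2) to 2 for the basement membrane, from 2 to 3 for the focal adhesion plaque, from 1 to 2 for integrins and tetraspanins, and from 1 to 2 for processing enzymes. Fewer samples were fitted in each.

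For integrins and tetraspanins the higher count was 2 with upper quartile scaling or limma on log2(TPM + 1), and 0 with at least 10 counts in every sample, a filter that drops ITGA1. The lower count was 1 by limma on either scale. For the basement membrane limma gave 0 lower genes on either scale, and processing enzymes had 1 higher gene without a filter or by DESeq2. The causes were not tested. Over all genes limma gave 1134 lower genes on log2(TPM + 1) and 1132 on log2(TPM + 0.1), where 71.0% and 70.9% of calls were higher, against 51.0% with TMM and 62.0% with upper quartile scaling.

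Same-numbered WT and MLST8-KO samples correlated at 0.105, 0.0565 and 0.140 in their deviations from the group means. Samples with different numbers correlated at 0.0203 at most, so each sample correlated best with its own number. The main fit did not take the numbers as pairs because the study states no pairing, and whether the samples were paired was not settled. With the replicate block, 2261 genes were higher and 2157 lower, ITGA6 was at 0.77 and PLEC at 0.19 (adjusted p = 0.0896 by edgeR), and no member's call changed.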
